A study of Mus musculus with 6 samples.

Results

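Replication-dependent histone genes encode the bulk of the core histones H2A, H2B, H3 and H4 and of the linker histone H1 that package newly copied DNA. They were taken as every gene whose symbol in the deposited tables began with Hist1h, Hist2h, Hist3h or Hist4h. Leaving out 1 symbol marked -ps gave 70 genes of the 37991 counted. The annotation GENCODE M21 lists 2 of the 70, Hist1h2aj and Hist1h2al, as pseudogenes. It gives the identifiers of Hist2h3c1 and Hist2h2bb to a processed transcript (Gm20634) and a long non-coding RNA (Gm42743). All 4 were kept under their deposited symbols. By class there were 6 H1, 20 H2a, 18 H2b, 13 H3 and 13 H4 genes. By cluster there were 56 in Hist1, 11 in Hist2, 2 in Hist3 and 1 in Hist4. RNA had been sequenced from the dorsal telencephalon, the roof of the embryonic forebrain that gives rise to the cortex, of CD1 mouse embryos at day E13.5. The 3 embryos of the first group were injected in the brain ventricles with FGF2 (100 ng), a secreted signal for neural progenitors. The 3 embryos of the second group had received the vehicle, PBS with 0.1% BSA, by the same route. All 6 were of 1 strain with no engineered allele named, the RNA came from formalin-fixed frozen sections, and the sources used here do not give the interval from injection to collection. The samples are tissue of many cell types and not 1 cell type.

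The mRNAs of these genes are made mostly in S phase and, unlike other mRNAs, usually end in a conserved stem-loop in place of a poly(A) tail. The stem-loop is bound by SLBP, and NPAT drives transcription of the clusters. In the developing cortex the main S-phase cells are the radial glia and the intermediate progenitors. Some members, among them Hist1h1c and Hist2h2be, are also known as polyadenylated transcripts in cells that no longer divide. The sources used here do not say whether the libraries were selected for poly(A), and its part in the levels was not tested.

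The stem-loops are shown because they are the feature that sets these mRNAs apart. GENCODE M21 transcripts (GRCm38) were found for all 70 genes, 58 by gene identifier and 12 by symbol. The pattern searched was a perfect stem of 6 bases starting with GG, a loop of 4 bases starting with T, and the reverse complement of the stem, on the transcript strand only. It was present in 47 of the 70 genes and in 0.792% of 41153 other protein-coding transcripts of 300 to 3000 bases. Sequences are given 5′ to 3′ with T for U, the 16 bases of the stem-loop in capitals and 5 flanking bases on each side.
Hist3h2ba: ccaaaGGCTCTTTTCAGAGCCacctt
Hist3h2a: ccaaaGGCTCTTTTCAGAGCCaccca
Hist1h1c: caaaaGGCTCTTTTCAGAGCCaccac
Hist1h4j: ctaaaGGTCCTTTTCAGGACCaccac
Hist1h4i: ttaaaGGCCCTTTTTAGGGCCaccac
Hist1h2ao: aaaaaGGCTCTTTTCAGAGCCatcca
Hist2h2ac: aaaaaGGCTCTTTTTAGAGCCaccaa
The form in Hist3h2ba, Hist3h2a, Hist1h1c and Hist1h2ao was found in 27 members, of the classes H1, H2a, H2b and H3. The 12 H4 genes with a match each carried 1 of 4 other forms, which no member of another class had. In all, 8 forms were found. The 23 genes without a match included Hist2h2be, whose transcript is 2620 bases long, and models that hold little more than the coding sequence, such as Hist1h2ai with 393 bases. A missing match says only that these letters were not in that transcript model.

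Levels were low for most members and concentrated in a few. The deposited RPKM, which scales reads for transcript length and library size, had a median over the 70 genes of 0.428 as a mean of 6 embryos. It is not the deposited counts rescaled. Hist1h2ap had 12 reads and 0 RPKM in FGF2 6. Hist1h2br had 4, 6 and 2 reads in vehicle 7, 8 and 9 and 0 RPKM in each. The RPKM of members that share sequence with others may therefore rest on other reads than their counts. Of the 70, 7 genes were above 10 RPKM, 19 were above 1 RPKM and 51 were at or below 1 RPKM. Summed over the 6 libraries, 12 members had at least 1000 reads and 33 had under 100. In reads, which are not scaled for length, the 9 members with the most held 84.4% of all 91859 histone reads.

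Hist3h2ba, an H2B gene on chromosome 11 (58762413 to 58763032, mm9), had the highest level. Its RPKM was 84.5, 97.0 and 156 in FGF2 embryos 6, 7 and 8 and 104, 83.1 and 105 in vehicle embryos 7, 8 and 9. FGF2 8 stood above all others and the groups overlapped, with a log2 fold change of FGF2 over vehicle of 0.15 (SE 0.23) and an adjusted p of 0.768 in edgeR's quasi-likelihood test. Its neighbour Hist3h2a, an H2A gene 5154 bases away, had 19.6, 22.4 and 27.1 RPKM with FGF2 and 22.8, 24.0 and 27.8 RPKM with vehicle, again overlapping. Its log2 fold change was -0.06 (SE 0.14, adjusted p 0.847, edgeR). The span of Hist3h2a overlaps that of Trim17, and reads in the overlap count for both. Together these 2 genes of cluster Hist3 held 47.6% of the histone reads.

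**Figure D1:**
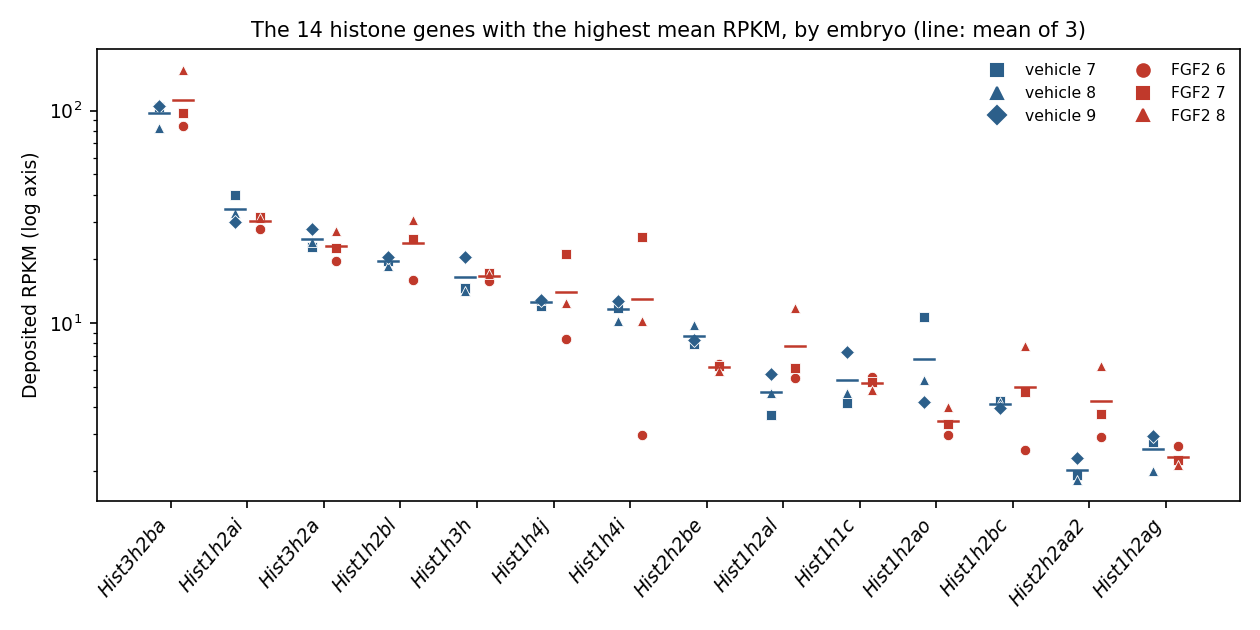
Deposited RPKM on a log axis for the 14 histone genes with the highest mean, with 1 point per embryo (blue: vehicle, red: FGF2) and a line at the mean of 3. Hist3h2ba led with a mean of 105 RPKM, and the FGF2 points of Hist1h4i run from 2.96 to 25.5.

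A second concentration of reads was in Hist1. Hist1h2bl, Hist1h2ai and Hist1h3h, genes for H2B, H2A and H3, lie side by side within 2353 bases of chromosome 13 (21807632 to 21809984, mm9) and held 20.1% of the histone reads. Their mean RPKM over 6 embryos was 21.7, 32.2 and 16.6. Hist1h2ai and Hist1h2bl share the 228 bases between their starts, shown here because both of its genes were above 1 RPKM, which was so in 1 of 12 such pairs. The sequence is from RefSeq, GRCm38.p6, chr13:21716184-21716411, plus strand, read towards Hist1h2ai, with CCAAT or its reverse complement in capitals.
Hist1h2ai upstream: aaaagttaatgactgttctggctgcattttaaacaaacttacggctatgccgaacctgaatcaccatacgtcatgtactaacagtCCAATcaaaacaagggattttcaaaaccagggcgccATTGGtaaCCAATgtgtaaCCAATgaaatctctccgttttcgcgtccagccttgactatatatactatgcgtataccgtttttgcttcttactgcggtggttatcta
The interval holds CCAAT 4 times over both strands.

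In the 12 pairs, an H2A and an H2B gene lie 167 to 305 bases apart. In 5 of them 1 gene was above 1 RPKM, and in 6 neither was. The widest ratio of mean RPKM within a pair was in Hist2h2ac and Hist2h2be, 240 bases apart in the files, at 0.327 and 7.45 RPKM. Hist1h2ac and Hist1h2bc followed with 0.250 and 4.59 RPKM. Of the 8 pairs with both genes tested, 3 had log2 fold changes of the same sign in both.

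Promoter entries, 250 bases before to 50 after the start, were found in the RefSeq table for 61 members. CCAAT, on either strand, was in all 49 promoters of H1, H2a, H2b and H3 genes and in 3 of 12 H4 promoters, beside 37.4% of all 32851 promoters in the table. TATAAA, on either strand, was in 57.4% of the members' promoters and 13.6% of all. The octamer ATGCAAAT, on either strand, was in 7 of 17 H2a and 6 of 16 H2b promoters and in none of the other classes, beside 1.74% of all promoters. Entries of neighbouring H2a and H2b genes can overlap, as those of Hist1h2ah and Hist1h2bk do, both with the octamer. The same bases can thus count in both classes, and the promoters are not all distinct. None of these 3 motifs contains another, and a match is a description of the sequence and not a binding site.

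The share of the spans covered by reads differed between libraries. A median of 59.4% to 70.0% of the members' spans was covered by reads in 5 of the libraries, against 36.9% in vehicle 9. Over all genes the medians were 50.7% to 68.4% and 30.1%, so coverage in vehicle 9 was low library-wide. All of its counts above 0 were even numbers, so each of its alignments may have been counted 2 times, and its read counts below are as deposited. With its counts halved, 1 member, Hist2h2be, was called as before (adjusted p 0.0423, edgeR). Hist1h3c, an H3 gene, had 4 reads in vehicle 9 and 46 and 51 reads in vehicle 7 and 8. Total counts over all genes were 61489462 to 81532334 per library. The 3 FGF2 embryos and vehicle 7 had 7969 to 12893 reads over 3 Y-linked genes, whereas vehicle 8 and 9 had 13 and 16, so that embryo sex differed within the vehicle group and not within the FGF2 group.

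In the comparison of FGF2 with vehicle, edgeR called 1 histone gene, close to the threshold. Hist2h2be was called lower with FGF2, and no member was called higher. Of the 70 members, 50 had enough reads to be tested by edgeR's quasi-likelihood test with Benjamini-Hochberg adjustment over all 21983 genes tested, and 49 of the 50 did not pass an adjusted p of 0.05. Over all genes tested, 2.68% were called higher and 0.951% lower, so that 1 lower call among 50 members, or 2%, is near the background. The 20 members not tested had at most 78 reads over the 6 libraries.

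At an unadjusted p under 0.05, 4 members were higher and 2 were lower, beside 11.2% and 8.13% of all genes tested. The CPM values, counts scaled to a common library size with TMM, did not overlap between the groups in 8 members with FGF2 higher (16% of those tested, beside 14.6% of all genes) and in 3 with FGF2 lower (6%, beside 13.6%). These shares were near the background or below it. The limma fits of RPKM called no member. DESeq2, with 61 members tested, called 1 higher (1.64%, beside 5.93% of the 22899 genes it tested) and 2 lower (3.28%, beside 3.08%), which are Hist2h2aa2, Hist1h2ao and Hist2h2be.

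Hist2h2be encodes an H2B protein that in mice is best known from olfactory neurons. It lies on chromosome 3 (96025044 to 96027661, mm9), overlaps no other gene span, and 99.7% to 100% of its span was covered in every library. Its CPM was 15.0, 15.0 and 14.4 in FGF2 embryos 6, 7 and 8 and 19.3, 23.9 and 20.8 in vehicle embryos 7, 8 and 9. Every FGF2 embryo was below every vehicle embryo, and the FGF2 embryos lay close together. The mean was 14.8 ± 0.367 CPM with FGF2 and 21.3 ± 2.33 CPM with vehicle (SD, n = 3 embryos). The log2 fold change was -0.53 (SE 0.109), with an adjusted p of 0.0429 (edgeR). The deposited RPKM did not overlap either, at 6.42, 6.30 and 5.95 with FGF2 and 7.98, 9.76 and 8.29 with vehicle. Hist2h2be is 1 of 7 members without a stretch of 50 bases in common with another member's transcript.

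The call of Hist2h2be lies close to the threshold. It was lost when any embryo other than FGF2 8 was left out (adjusted p 0.0977 to 0.194, edgeR), with library totals as the only scaling (0.0553), in the 3 limma fits of RPKM (0.0630 to 0.0989) and with embryo sex as a covariate (0.557), where the log2 fold change was -0.39. The call was also lost with embryo number as a block. The direction was the same in each of the 20 alternatives run, with log2 fold changes from -0.60 to -0.39. Leaving out an embryo also changed the calls over all genes. The main fit called 590 genes higher and 209 lower (edgeR). With 1 embryo other than FGF2 8 left out, 181 to 420 were called higher and 37 to 97 lower. Without FGF2 8, 964 were called higher and 979 lower.

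Markers of other tissues differed between the same embryos. The 6 choroid plexus markers were all higher with FGF2, with a summed CPM of 158 to 478 against 1.30 to 2.68 with vehicle, and 7 of 10 ventral telencephalon markers were higher, with sums of 496 to 720 against 33.7 to 131. Of 9 neuron genes tested, 2 were higher, with sums of 1341 to 2203 against 1365 to 1420, and of 6 microglia genes 2 were higher, with sums of 95.0 to 110 against 61.2 to 74.9. Of 12 dorsal telencephalon genes 3 (Emx1, Pax6 and Eomes) were lower, with sums of 2640 to 2912 against 3727 to 3858, and of 6 meninges genes 2 (Col1a1 and Col1a2) were lower, with sums of 2174 to 2415 against 3519 to 4038. No marker of these lists was at 0 reads in all libraries, and the labelled tissue's own markers were present in every embryo. The part of these cells in the result for Hist2h2be was not tested, and in tissue RNA fewer cells of a type and less RNA per cell cannot be told apart.

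The head-to-head neighbour of Hist2h2be is Hist2h2ac, an H2A gene. Hist2h2ac had 19, 13 and 10 reads in the FGF2 embryos and 19, 7 and 18 in the vehicle embryos, which overlap, with a log2 fold change of -0.30 (SE 0.51, adjusted p 0.789, edgeR). The interval between the starts of both genes is shown because it lies upstream of the only member called by edgeR and of a low neighbour. It is from RefSeq, GRCm38.p6, chr3:96220881-96221071, minus strand, read towards Hist2h2ac, with CCAAT or its reverse complement and TATAAA in capitals.
Hist2h2ac upstream: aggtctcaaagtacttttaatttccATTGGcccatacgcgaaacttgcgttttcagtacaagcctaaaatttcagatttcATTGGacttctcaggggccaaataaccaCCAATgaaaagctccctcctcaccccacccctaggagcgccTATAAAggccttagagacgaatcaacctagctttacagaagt
These 191 bases hold CCAAT 3 times over both strands and TATAAA 1 time.

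The other members of cluster Hist2 went in both directions. Hist2h2aa2, an H2A gene, had 135, 150 and 221 reads with FGF2 and 66, 72 and 82 reads with vehicle. All FGF2 embryos were above all vehicle embryos, and the log2 fold change was 1.05 (SE 0.31, adjusted p 0.123, edgeR), short of the threshold. Without FGF2 8 it was 0.69. DESeq2 gave an adjusted p of 0.0301 for the same gene. The deposited identifier of Hist2h2aa2 is named Hist2h2aa1 in GENCODE M21, and 89.4% of its windows of 50 bases also occur in another member, so reads may be split between copies. Hist2h4, an H4 gene, had 25, 35 and 38 reads with FGF2 and 10, 13 and 18 with vehicle, with a log2 fold change of 1.09 (SE 0.42, adjusted p 0.217, edgeR). Hist2h3c2, an H3 gene, had 107, 100 and 101 reads with FGF2 and 89, 164 and 114 with vehicle, with a log2 fold change of -0.43 (SE 0.26, adjusted p 0.409, edgeR), or -0.21 without vehicle 8. The summed CPM of the cluster was 21.5, 23.2 and 28.5 with FGF2 and 26.1, 31.9 and 28.5 with vehicle, which overlap.

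**Figure D2:**
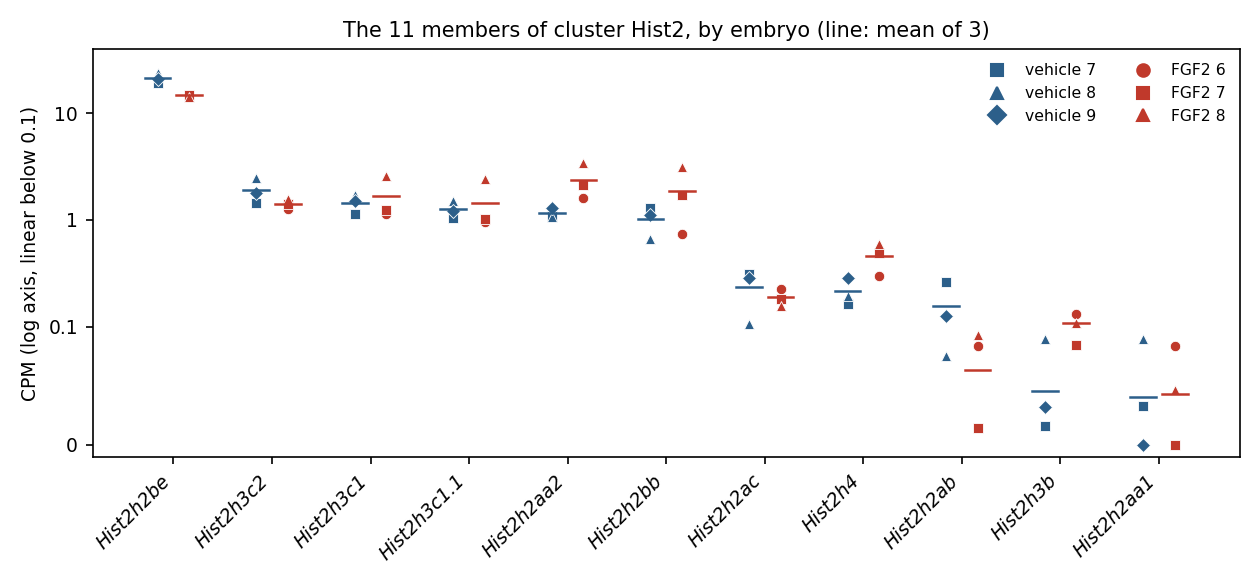
CPM of the 11 members of cluster Hist2 (log axis, linear below 0.1), with 1 point per embryo and a line at the mean of 3. The groups are apart in Hist2h2be (FGF2 lower), Hist2h2aa2 and Hist2h4 (FGF2 higher) among the 8 tested members. These are 12.5% lower and 25% higher, beside 13.6% and 14.6% of all genes tested.

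Among H1 genes, which encode the linker histone, Hist1h1c had the highest level. It had 692, 558 and 481 reads with FGF2 and 399, 474 and 682 with vehicle, with a log2 fold change of -0.05 (SE 0.20, adjusted p 0.912, edgeR). The vehicle embryos ranged more widely than the FGF2 embryos in CPM, at 6.53 to 10.8 against 7.48 to 8.23. Hist1h1e had 56, 54 and 37 reads with FGF2 and 31, 23 and 18 with vehicle. Its CPM groups did not overlap, but the log2 fold change of 0.82 (SE 0.34) did not pass, at an adjusted p of 0.241 (edgeR). Hist1h1b and Hist1h1d had log2 fold changes of 0.54 (SE 0.41) and 0.25 (SE 0.27), the former 0.33 without FGF2 8. The testis-type linker histone Hist1h1t had 0, 1 and 4 reads with FGF2 and 2, 4 and 0 with vehicle. The summed CPM of the class was 10.6 ± 0.416 with FGF2 and 10.2 ± 2.41 with vehicle (SD, n = 3).

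Among H2A genes, Hist1h2ai had 2117, 2079 and 1875 reads with FGF2 and 2333, 2110 and 1850 with vehicle. On the CPM scale these are 25.2, 29.3 and 29.2 against 38.2, 31.6 and 29.4, so the groups were apart by little, and the log2 fold change was -0.24 (SE 0.12, adjusted p 0.326, edgeR). The RPKM groups of Hist1h2ai overlapped. Hist1h2ao had 125, 124 and 127 reads with FGF2 and 330, 193 and 134 with vehicle. The vehicle embryos spread over 2.13 to 5.40 CPM above FGF2 embryos at 1.49 to 1.97 CPM, with a log2 fold change of -0.999 (SE 0.35, adjusted p 0.174, edgeR) and an adjusted p of 0.0473 in DESeq2. Without vehicle 7 the log2 fold change of Hist1h2ao was -0.54. In Hist1h2ao, 93.5% of the windows of 50 bases are shared with Hist1h2ap, which had 12, 7 and 5 reads with FGF2 and 26, 26 and 2 with vehicle. Counts of either copy are therefore uncertain. Hist1h2al had 154, 149 and 262 reads with FGF2 and 80, 110 and 130 with vehicle, with a log2 fold change of 0.67 (SE 0.35, adjusted p 0.344, edgeR), or 0.23 without FGF2 8. It lies on chromosome 13 away from the rest of Hist1 (51298057 to 51298434, mm9) and GENCODE M21 lists it as a processed pseudogene. Of the 50-base windows of Hist1h2al, 67.6% occur in another member. The transcript of Hist2h3c1 holds 65.5% of them and also 89.4% of those of Hist2h2aa2. Reads of Hist1h2al may thus be split between copies, and its values may not be independent of those of Hist2h2aa2.

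The testis-type H2A gene Hist1h2aa had no read in any library, which over 409833644 reads allows up to 0.00732 unscaled CPM, counting error only. Its H2B partner Hist1h2ba had 0, 0 and 1 reads with FGF2 and 0, 0 and 2 with vehicle. These 3 testis-type members were thus at or near 0 in all embryos.

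Among the other H2B genes, Hist1h2bl had 448, 599 and 685 reads with FGF2 and 415, 439 and 462 with vehicle. The CPM of FGF2 6, 5.33, was below all vehicle embryos and that of FGF2 8, 10.7, above them, with a log2 fold change of 0.24 (SE 0.24, adjusted p 0.636, edgeR). Hist1h2bc had 190, 252 and 383 reads with FGF2 and 199, 212 and 186 with vehicle, with a log2 fold change of 0.32 (SE 0.33, adjusted p 0.639, edgeR). Hist1h2bb had 19, 23 and 21 reads with FGF2 and 11, 7 and 6 with vehicle, groups that did not overlap, with a log2 fold change of 1.19 (SE 0.45, adjusted p 0.202, edgeR). Of the 13 H2B genes tested, 11 had log2 fold changes above 0 and 1, Hist2h2be, passed the test.

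Among H3 genes, Hist1h3h had 574, 535 and 490 reads with FGF2 and 397, 430 and 596 with vehicle, with a log2 fold change of -0.03 (SE 0.18, adjusted p 0.954, edgeR). Hist1h3c had 75, 61 and 68 reads with FGF2 beside the vehicle values given above, with a log2 fold change of 0.83 (SE 0.67, adjusted p 0.545, edgeR). Without vehicle 9 its groups were 0.860 to 1.06 CPM with FGF2 and 0.752 and 0.763 CPM with vehicle, and its log2 fold change was 0.30. Hist1h3f had 78, 62 and 59 reads with FGF2 and 49, 54 and 96 with vehicle, which overlap. None of the 9 H3 genes tested passed.

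The H4 genes were the most uneven within the FGF2 group. Hist1h4i had 137, 949 and 363 reads in FGF2 embryos 6, 7 and 8, or 1.63, 13.4 and 5.64 CPM, and 388, 390 and 448 reads with vehicle, or 6.35, 5.83 and 7.11 CPM. FGF2 6 was below and FGF2 7 above every vehicle embryo, and the log2 fold change was 0.10 (SE 0.63, adjusted p 0.951, edgeR). Without FGF2 7 the log2 fold change of Hist1h4i was -0.84 (adjusted p 0.410, edgeR). Hist1h4j had the same order, with 265, 569 and 308 reads with FGF2 and 286, 339 and 328 with vehicle, and a log2 fold change of 0.09 (SE 0.31, adjusted p 0.897, edgeR). Hist1h4m had 23, 74 and 44 reads with FGF2 and 33, 51 and 20 with vehicle, and Hist1h4n had 13, 52 and 18 reads with FGF2 and 30, 33 and 2 with vehicle. In 89.8% of its windows of 50 bases, Hist1h4m matches Hist1h4n. Hist1h4d had 39, 35 and 25 reads with FGF2 and 14, 12 and 22 with vehicle, with a log2 fold change of 0.83 (SE 0.38, adjusted p 0.288, edgeR).

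FGF2 7 held the highest CPM in 5 of the 8 H4 genes tested, and in 10 of all 50 members tested. FGF2 8 held it in 8 of 15 H2a and 8 of 13 H2b genes, and in 21 of all 50. The share over all genes was not computed, so these counts cannot be called particular to histone genes. The summed CPM of H4 genes was 6.85, 25.5 and 13.6 with FGF2 and 13.3, 13.3 and 14.2 with vehicle. Hist4h4, the only member of cluster Hist4, had 17, 20 and 4 reads with FGF2 and 6, 4 and 8 with vehicle, and was not tested.

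**Figure D3:**
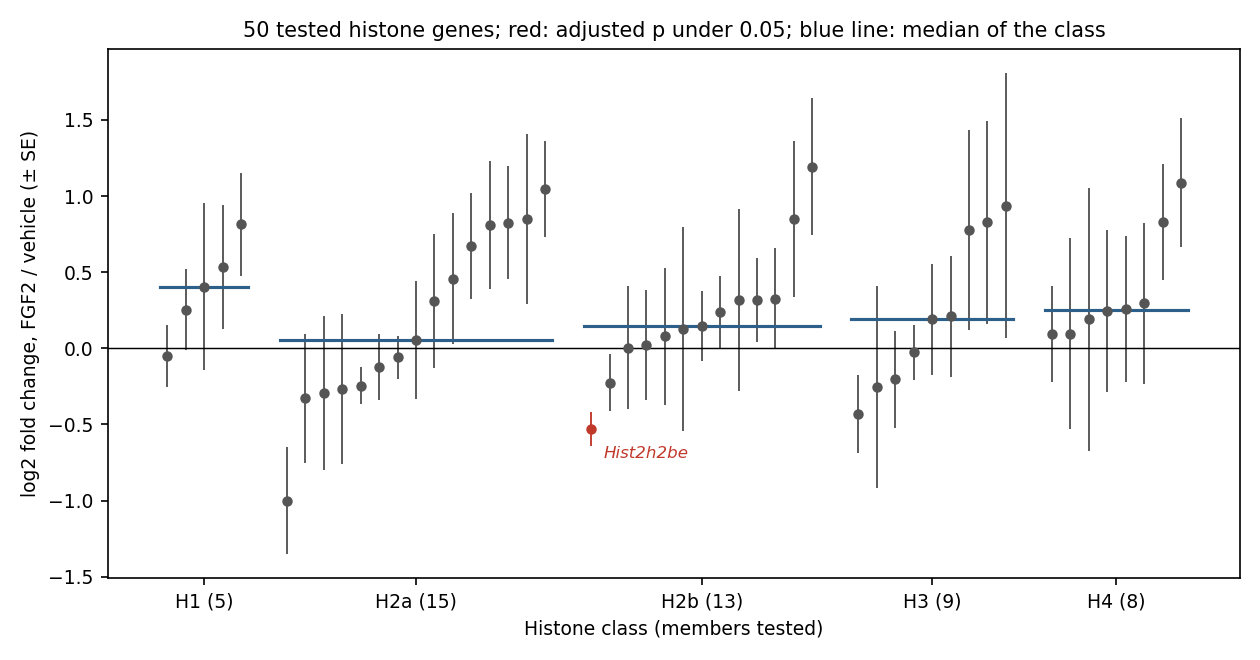
Log2 fold change of FGF2 over vehicle with its standard error for the 50 tested histone genes, ordered within each class, with a blue line at the median of the class. Hist2h2be, in red at -0.53, is the only member past the threshold, and the bars of most others reach 0 or come near it.

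Over the 50 tested members the median log2 fold change was 0.22 and 36 were above 0. Over all genes tested the median was 0.01. The value describes the list and has no test. It was carried by members with few reads: of the 29 with a mean CPM below 1, 24 were above 0 with a median of 0.32 and a median SE of 0.45, and of the 21 with a mean CPM of at least 1, 12 were above 0 with a median of 0.09. Without the filter on low counts, 50 of the 69 members with any read were above 0. By class the medians were 0.40 for H1, 0.05 for H2a, 0.15 for H2b, 0.19 for H3 and 0.25 for H4, and all 8 H4 genes tested were above 0, of which 4 were above 0 without FGF2 7. The median fell to 0.10 without FGF2 8, rose to 0.40 without FGF2 6, and was 0.042 with voom weighted by sample quality.

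The sum of counted histone reads did not separate the groups on the CPM scale. It was 0.0186% to 0.0272% of all reads of a library. Histone RNA that the libraries did not capture is not in it. Summed over the 70 members, CPM was 180 in FGF2 6, 224 in FGF2 7 and 273 in FGF2 8, and 228, 218 and 235 in vehicle 7, 8 and 9. FGF2 embryos lay both below and above all vehicle embryos, at 226 ± 46.7 against 227 ± 8.72 CPM (SD, n = 3), and the ratio of means was 0.994. No class and no cluster had groups apart on the CPM scale. Some members overlap each other, such as Hist2h3c1.1, which lies within Hist2h3c1, so the same reads can enter these sums more than once. Without Hist3h2ba the sums were 163 ± 26.5 and 170 ± 2.22 CPM. An exact permutation test of 3 against 3 cannot give a two-sided p below 0.1, and none was run on these sums.

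**Figure D4:**
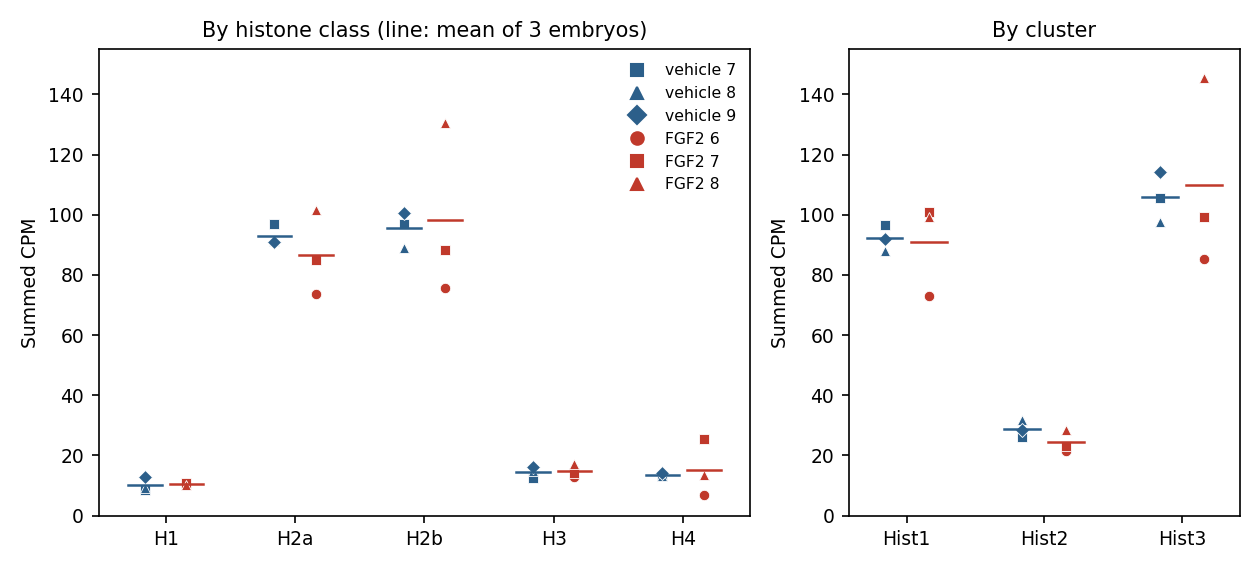
Summed CPM of the histone genes by class (left) and by cluster (right, without the single gene of Hist4), with 1 point per embryo and a line at the mean of 3. The 3 FGF2 embryos spread from 75.8 to 130 CPM in H2b and from 85.3 to 145 CPM in Hist3, around the vehicle embryos.

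The genes that make and use histones did not pass the test either. None of 26 S phase genes, 13 mitosis genes, 7 regulators of histone transcription, 13 genes of histone mRNA processing and decay, 17 histone chaperones and 11 replication-independent histone variants was called in either direction (edgeR), with median log2 fold changes of -0.22, -0.19, -0.16, -0.08, -0.12 and -0.10. Beside the shares over all genes tested, 2.68% higher and 0.951% lower, no call in lists this small is near the background. Slbp had a log2 fold change of 0.04 (SE 0.15), Npat of -0.11 (SE 0.12) and Pcna, the replication clamp, of 0.08 (SE 0.09). The variant genes H2afz, H2afx, H3f3b and H1f0 had -0.10 (SE 0.15), -0.13 (SE 0.10), -0.06 (SE 0.10) and -0.33 (SE 0.16). Summed CPM of 2 of these lists was lower in every FGF2 embryo than in every vehicle embryo. The S phase genes summed to 3227, 3274 and 2231 CPM in FGF2 6, 7 and 8 and to 3359, 3437 and 3352 CPM in vehicle 7, 8 and 9, with 22 of 26 log2 fold changes below 0. The genes of histone mRNA processing and decay summed to 940 to 1040 CPM with FGF2 and 1085 to 1105 CPM with vehicle, with 11 of 13 below 0. Over all genes tested, 10674 of 21983 log2 fold changes were below 0. The sums of the other 4 lists overlapped, such as 3755 to 4097 CPM with FGF2 and 3956 to 4079 CPM with vehicle for the 11 variants. FGF2 8 had the lowest S phase sum and the highest sum of histone genes. These sums have no test.

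Transcripts that continue past the stem-loop were set beside their levels. Of the 47 members with a match, 24 had over 100 bases after the stem-loop and 23 had at most 100, counted to the end of the annotated transcript. The median of the mean RPKM was 0.484 in the former and 0.281 in the latter. Among the 47, the highest were Hist3h2ba with 169 bases after the stem-loop, Hist3h2a with 1643, Hist1h4j with 385 and Hist1h4i with 330. None of the 23 with at most 100 bases was above 5.12 RPKM, the level of Hist1h2ao. The number above 1 RPKM was 7 of 24 and 6 of 23. Both sets range over levels that overlap, and the points share their libraries. Hist1h2ai, Hist1h2bl and Hist1h3h, at 32.2, 21.7 and 16.6 RPKM, had no match and are in neither set. Their transcript models are 393, 381 and 411 bases long, so the bases after a stem-loop are not known for them. For a gene with several matching models, protein-coding models came first, then the longest.

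**Figure D5:**
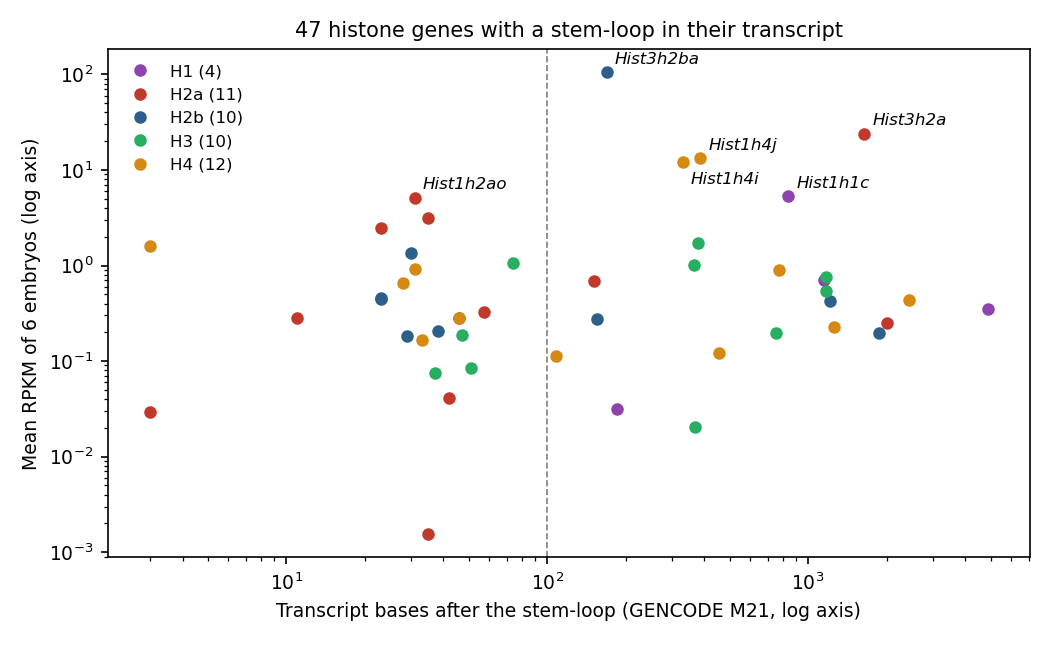
Mean RPKM of 6 embryos against the number of annotated transcript bases after the stem-loop, both on log axes, for the 47 histone genes with a match, coloured by class, with a dashed line at 100 bases. The 5 named genes right of the line, led by Hist3h2ba at 105 RPKM, lie above every gene left of it. Genes without a match, among them Hist1h2ai at 32.2 RPKM, are not shown.

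Copies that share sequence limit what can be said of single members. Of the 70 members, 10 had over 90% and 35 had over 50% of their transcript's 50-base windows in another member, and 13 overlapped the span of another gene. The sources used here do not say how reads with several alignments were counted. Hist3h2ba and Hist2h2be had no such window, Hist3h2a had 2%, and Hist1h2ai had 90.1%. The value for Hist1h2ai is of a transcript model of 393 bases, whereas its reads were counted over a span of 1041 bases. The rest of that span was not searched for shared windows.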

How the data were processed

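Counts are the authors' deposited whole numbers of alignments per gene span, per the file layout; the deposited RPKM per symbol is scaled for length and depth, and the deposited fraction is the share of the span covered. The submitters' processing notes list bedtools 2.12.0, TopHat2 2.0.9, CASAVA 1.8, Bowtie2 2.1.0.0 and the build NCBIM37 (mm9). The sources used here do not state strand use, multiple alignments or library selection. From the counts, edgeR 4.0.16 in R 4.3.3 (filterByExpr, TMM, robust quasi-likelihood test) compared 3 FGF2 with 3 vehicle embryos, adjusted over 21983 genes at 0.05. SEs are the fold change over the root of F. Alternatives used DESeq2 1.42.0 and limma 3.58.1 (log2 of RPKM plus 1 or 0.1, for genes with at least 1 RPKM in 3 libraries). In counts simulated for FGF2 against vehicle with 21670 genes, the test called 82 of 100 true 2-fold changes and 99 of 100 true 4-fold changes. Of its 195 calls, 14 were false. The changed genes all had a mean of at least 1 CPM, and the spread was drawn from the trend over genes. The shares called therefore do not cover the 29 tested members with a mean CPM below 1. Members and lists were chosen with earlier results of these data known. Members named singly are those called, the 4 highest by RPKM and the 2 with the smallest p per class, and 9 set by name; others named beside them were chosen after their values were seen. Lists also held erythroid (9) and endothelial (6) markers, with 0 called. Embryo sex was added as a covariate after seeing the data. Coordinates are as deposited, 1-based; RefSeq and GENCODE sequences are of GRCm38. Reads are not independent molecules.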

Additional observations from a re-analysis of the deposited data

How the results depend on the processing

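The call of Hist2h2be and the medians were recomputed under 20 alternatives. The number of members called lower was 0 with library totals alone, in the 3 limma fits of RPKM and with embryo sex as a covariate, 2 with DESeq2, and 0 to 1 when 1 embryo was left out. The number called higher was 1 with DESeq2 and 0 in the others. The median log2 fold change of the members was 0.042 with voom weighted by sample quality, 0.056 with RPKM plus 1 (with and without a filter), 0.054 with RPKM plus 0.1, and 0.099 to 0.40 when 1 embryo was left out. Embryo numbers 7 and 8 occur in both groups. The sources used here do not say whether a number marks a shared litter or batch. Deviations were correlated with r of -0.0383 and -0.03 between same-numbered embryos, and -0.0804 to 0.0627 over all pairs across the groups. These values cannot tell whether same-numbered embryos belong together. With the replicate block 0 members were called lower and 0 higher (Hist2h2be -0.55, adjusted p 0.205, edgeR), and the median was 0.36. Sums over all members stayed within their spread, whereas the log2 ratio of cluster Hist2, -0.24, was -0.49 without overlapping spans and -0.018 in RPKM. Over all genes DESeq2 called 1359 higher and 706 lower, and voom 1273 and 986. With embryo sex as a covariate 4 and 1 were called.

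Signs turned in 11 named members, none of them called. Leaving out 1 embryo gave Hist1h1c -0.19 to 0.20, Hist1h2bc -0.11 to 0.60, Hist1h2bl -0.0040 to 0.47, Hist1h3f -0.37 to 0.17, Hist1h3h -0.12 to 0.18, Hist1h4i -0.84 to 0.57, Hist1h4j -0.34 to 0.36, Hist1h4m -0.20 to 0.68, Hist1h4n -0.66 to 0.59, Hist3h2a -0.22 to 0.058 and Hist3h2ba -0.18 to 0.32. With voom the log2 fold changes were 0.11 for Hist1h1c, -0.080 for Hist1h2bc, 0.055 for Hist1h3h, -0.42 for Hist1h4i, -0.056 for Hist1h4m and -0.076 for Hist3h2ba. In the RPKM fits Hist1h3h was 0.040 with a pseudocount of 1 (with and without a filter) and 0.043 with 0.1, and Hist1h4i was -0.25 and -0.32. With library totals Hist1h3h was 0.015. With the replicate block Hist1h1c was 0.17, Hist1h3f 0.15, Hist1h3h 0.23, Hist1h4n -0.079 and Hist3h2a 0.099. With sex as a covariate Hist1h1c was 0.27, Hist1h3f 0.18, Hist1h3h 0.17, Hist1h4n -0.34 and Hist3h2a 0.042. The cause was not tested. Depth limits the members with few reads: the median SE was 0.45 on the log2 scale below a mean of 1 CPM and 0.27 at or above it.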
